A study of Bos taurus with 32 samples.

Results

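The blood and immune cell miRNAs described here are 7 of the 672 bovine miRNAs on the array, chosen by name: bta-miR-142, bta-miR-146a, bta-miR-146b, bta-miR-150, bta-miR-155, bta-miR-223 and bta-miR-342. Feature Extraction, the software that reads Agilent arrays, called 6 of the 7 detected on at least 1 array, against 295 of the 672. Fat was taken from 16 yearling Hereford × Aberdeen Angus steers, 8 on a control diet and 8 on a high fat diet whose fat content was raised with flaxseed, and both diets were fed until slaughter. Backfat was taken as subcutaneous fat and perirenal fat as visceral fat from each steer, so that 32 arrays in 4 groups of 8 were measured, 1 array per sample. The frozen fat was whole tissue, in which adipocytes, vessels, stroma, blood and immune cells were not separated, and fewer cells of a type cannot be told apart from less RNA per cell. Since a slide carried the arrays of a single group and a scan session those of a single diet, neither can be told apart from the groups. Both arrays of a steer held the same position on their slides, so within a diet steer and array position cannot be told apart.

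The 7 miRNAs are known from leukocytes. miR-142 is abundant in nearly all blood-forming cells, miR-223 marks granulocytes and monocytes, and miR-150 marks resting lymphocytes. miR-155 is induced when lymphocytes and macrophages are activated, and miR-146a and miR-146b are induced by inflammatory signals and restrain Toll-like receptor signalling. miR-342 lies in an intron of EVL in mammals and is found in leukocytes as well as in fat. White fat holds resident macrophages and lymphocytes whose number and state are known to change with feeding. Each of the 7 hairpins matched 1 RefSeq gene by name. In that annotation (ARS-UCD2.0) MIR142 overlapped TSPOAP1 and a long non-coding RNA, MIR223 overlapped VSIG4 and a long non-coding RNA, and MIR342 overlapped EVL, while MIR146A, MIR146B, MIR150 and MIR155 overlapped no other gene.

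The arrays of the high fat diet were brighter than those of the control diet. Summed over all miRNAs, intensity lay between 26021 and 79290 on control arrays and between 96888 and 366714 on high fat arrays, with 115 to 176 and 169 to 259 miRNAs detected. Values are therefore given first as deposited (total intensity, background subtracted and summed over the probes of a miRNA, not scaled between arrays) and then as scaled intensity on a log2 scale. For the latter, each array was divided by its 75th percentile over the 91 miRNAs detected on all 32 arrays, and values under a common floor of -7.22 were set to that floor. The relative error that Feature Extraction gave for a detected member had a median of 11.3% on the control arrays and 8.71% on the high fat arrays, and reached 31.1% and 31.7%. One miRNA is not compared in level with another, because probes differ in their affinity.

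The data gave no usable level for bta-miR-146a and bta-miR-150. bta-miR-146a was detected on 0 of 32 arrays. bta-miR-150, the lymphocyte miRNA, was detected on 1 of 32, the subcutaneous fat of high fat steer 411, with a total intensity of 5.05 and a relative error of 31.6%. On that array 0 probes of bta-miR-150 were well above background on at least 50% of their spots. The detection limit of an array, the lowest intensity called detected on it, was 1.79 to 5.11 for control arrays and 1.73 to 5.26 for high fat arrays, so both miRNAs were below what could be detected, which does not show that they were absent. This limit is the lowest value of any detected miRNA, and another miRNA can go undetected above it. Folds and ratios taken against it are therefore approximate and not strict bounds. Neither was tested. The opposite strand of the miR-142 hairpin, bta-miR-142*, was also detected on 0 of 32 arrays.

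bta-miR-142 was detected on all 16 high fat arrays and on 0 of 16 control arrays. The array names it without an arm, and which mature arm of the hairpin its probes read was not established here. In subcutaneous fat of the high fat diet its total intensity was 148 at the lowest, 239 at the median and 357 at the highest. In visceral fat of the high fat diet the lowest, median and highest values were 76.6, 104 and 234. The dimmest high fat array thus stood above the highest detection limit of any control array, 5.11. Taken at these limits, the groups of the 2 diets did not overlap in either depot, and the share of all miRNAs that separated in this way was not counted. With the control arrays set to their own detection limits, the scaled intensity of bta-miR-142 on the high fat diet was 11.49-fold higher in subcutaneous and 7.34-fold higher in visceral fat. The limma fit (adjusted p = 6.3e-26 and 1.9e-25) had every control array at the floor with no spread. Its p-values therefore depend on the floor and are not those of these folds, and bta-miR-142 entered the fit through its high fat arrays alone. The direction held with every alternative for the values except a background correction that adds an offset of 50 to each spot (normexp), under which bta-miR-142 differed by -0.61 and -0.73 (log2). Under that correction bta-miR-146a, which was detected nowhere, differed by -0.81 and -1.14.

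bta-miR-146b was likewise detected on 16 of 16 high fat and 0 of 16 control arrays, but close to the limit. Its total intensity was 5.72 to 28.0 with a median of 15.7 in subcutaneous fat, and 5.26 to 101 with a median of 6.74 in visceral fat. The value of 101 came from steer 202, whose subcutaneous value of 28.0 was also the highest of its group, and the next visceral value was 24.7. In visceral fat only 3 of the 8 arrays had a probe well above background on at least 50% of its spots. After scaling, 3 of 8 arrays in each depot were at the floor. With all control arrays at the floor, the fitted diet difference was 0.95 ± 0.36 (log2, SE, n = 8 per group) in visceral fat (limma, adjusted p = 0.019) and 0.43 ± 0.36 in subcutaneous fat (adjusted p = 0.28), values set by the floor. Without the visceral array of steer 202 the visceral difference was 0.54. With the control arrays set to their own detection limits the difference was -0.25 in visceral and -0.28 in subcutaneous fat, so no direction or fold is given, and a level like that of the high fat arrays was not detectable on the average control array.

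Of the 7 members, 6 in subcutaneous and 5 in visceral fat were detected on at least 1 of the 16 arrays compared. Detection on all 8 high fat and 0 of 8 control arrays was seen for 2 of them in each depot. Of the miRNAs detected on at least 1 of the 16 arrays compared, 14.9% met this rule in subcutaneous and 6.03% in visceral fat.

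bta-miR-155 was detected on all 32 arrays. In subcutaneous fat its total intensity was 9.15 to 60.9 (median 25.3) in control steers and 55.1 to 128 (median 84.7) in high fat steers. In visceral fat it was 5.39 to 34.0 (median 17.5) and 12.2 to 56.3 (median 32.5). As deposited, the medians of the high fat groups were thus 3.35 and 1.86 times those of the control groups, with overlap in both depots.

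bta-miR-223, the myeloid miRNA, was also detected on all 32 arrays. Its total intensity in subcutaneous fat was 21.5 to 80.0 (median 37.2) in control steers and 180 to 960 (median 284) in high fat steers, where steer 202 gave the value of 960 and the next was 511. In visceral fat it was 16.8 to 73.9 (median 24.4) and 64.4 to 175 (median 96.05), with steer 211 the highest of the control group. The unscaled groups of the 2 diets did not overlap in subcutaneous fat, and in visceral fat only control steer 211 reached into the high fat range. The median unscaled diet difference of the 91 miRNAs detected on all arrays was 2.01 in subcutaneous and 1.63 in visceral fat (log2). A separation before scaling is therefore not read as a result about a member, and the share of all miRNAs that separated was not counted.

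bta-miR-342 was called on 6 subcutaneous and 5 visceral arrays of the 8 in each control group, and on all 16 high fat arrays. Where detected it was 5.35 to 12.04 (median 8.32) and 4.12 to 8.84 (median 6.09) in the 2 control groups, against 26.8 to 52.7 (median 30.4) and 10.3 to 35.4 (median 19.7) in the high fat groups. Every high fat array was above every control array of the same depot before scaling, which, as for bta-miR-223, is not read as a result about the member. At least 2 of the 7 members were detected on each control array and at least 5 on each high fat array, with a maximum of 3 and 6.

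**Figure D1:**
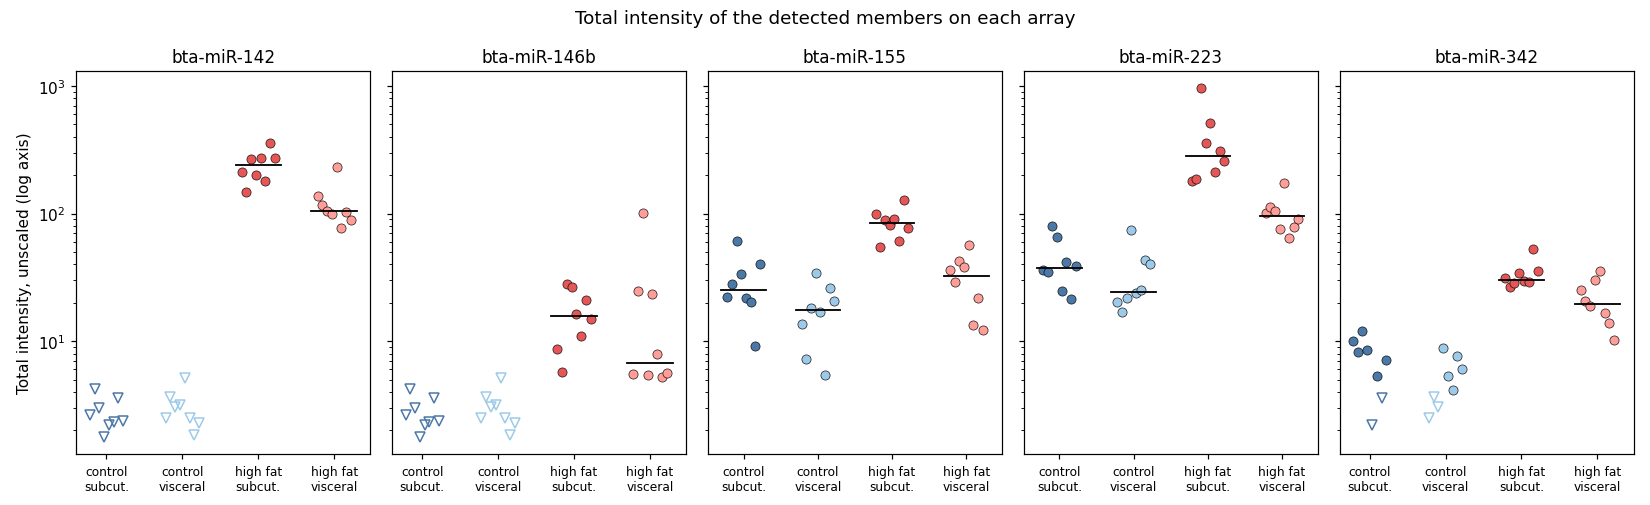
Total intensity as deposited (log axis, not scaled between arrays) of the 5 members detected on more than 1 array, for the 8 arrays of each diet and depot. Filled points are detected values, open triangles the detection limit of an array on which the miRNA was not detected, and lines the median where all 8 arrays were detected; bta-miR-142 and bta-miR-146b have only triangles on the control diet, and the highest bta-miR-223 value, 960, is that of steer 202.

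The first comparison asks which members differed between the diets in the same depot after scaling. It could be read for the 3 members detected on both diets, bta-miR-155, bta-miR-223 and bta-miR-342, since bta-miR-142 and bta-miR-146b were tested against the floor alone. In subcutaneous fat 1 of the 3 was lower on the high fat diet (bta-miR-155) and 0 were higher. Of the 186 tested miRNAs with a detected array in both groups, limma called 36% higher and 43% lower at an adjusted p under 0.05 (41.6% and 34.3% of all 233 tested). In visceral fat 2 of the 3 were lower (bta-miR-155 and bta-miR-223) and 0 were higher, and of the 176 such miRNAs 39.2% were called in each direction (42.1% higher and 29.6% lower among all 233). Most miRNAs were thus called between the diets, and a call of a member is read against that.

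The scaled intensity of bta-miR-155 in subcutaneous fat was -3.22 ± 0.42 (log2, SD, n = 8) in control steers and -4.46 ± 0.29 in high fat steers. The difference of -1.24 ± 0.22 (SE) passed the test (limma, adjusted p = 8.8e-06). It turned to 1.67 without scaling and to 0.76 when each array was scaled to bta-miR-181a, the reference miRNA of the study's qRT-PCR. The 2 groups did not overlap after the main scaling. This is not read as a result about the member, since the share of all miRNAs that separated was not counted. In visceral fat the means were -3.61 ± 0.61 and -5.18 ± 0.41 and the groups overlapped. That difference of -1.57 ± 0.22 (limma, adjusted p = 1.8e-07) turned to 0.85 without scaling and to 0.31 with bta-miR-181a.

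For bta-miR-223 the scaled means in subcutaneous fat were -2.63 ± 0.53 in control steers and -2.53 ± 1.01 in high fat steers, a difference of 0.10 with a 95% interval of -0.52 to 0.71 (limma, adjusted p = 0.79). In visceral fat the means were -2.66 ± 0.38 and -3.38 ± 0.29. The difference of -0.72 ± 0.30 passed the test (limma, adjusted p = 0.033), turned to 1.70 without scaling and 1.16 with bta-miR-181a, and missed the threshold when any of 6 single arrays was left out. The arrays were those of control steers 211, 308 and 405 and high fat steers 204, 302 and 411, and without steer 211 the difference was -0.61 (limma, adjusted p = 0.079). The scaled difference of bta-miR-342 was -0.23 in subcutaneous fat (95% interval -1.04 to 0.57, limma adjusted p = 0.60) and 0.25 in visceral fat (-0.56 to 1.05, adjusted p = 0.61). With undetected control arrays at their own limits these values were -0.54 and -0.35. Without scaling the differences of bta-miR-342 were 2.40 and 2.15 (log2), and both passed the test (limma, adjusted p = 2.2e-08 and 2.4e-07).

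Since the scaling set the sign, bta-miR-155 and bta-miR-223 were also placed among the 91 miRNAs detected on all arrays. Their median diet difference was -0.91 in subcutaneous and -0.80 in visceral fat after the main scaling, and 2.01 and 1.63 without scaling. bta-miR-155 stood at -0.34 and -0.77 (log2) relative to this median, where 42.9% and 41.8% of the 91 had a lower difference. bta-miR-223 was 1.01 above it in subcutaneous fat, with 65.9% of the 91 lower, and 0.08 above it in visceral fat, with 51.6% lower. Both members thus lay in the middle of the 91. These positions do not depend on a factor that is constant within an array, and they were the same without scaling. No position is given for bta-miR-142, bta-miR-146b and bta-miR-342, whose differences depend on the floor.

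**Figure D2:**
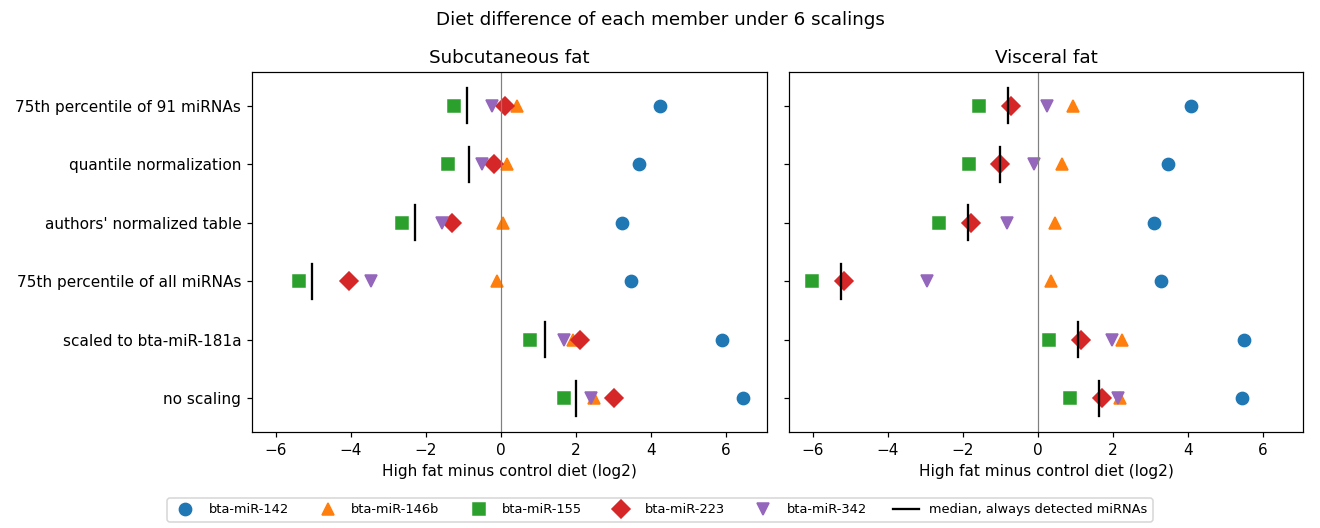
High fat minus control diet difference (log2) of the 5 members tested, in subcutaneous and visceral fat, under 6 ways of scaling the arrays (rows); black bars are the median of the miRNAs detected on all arrays. bta-miR-142, whose control arrays are all at the floor, lies right of 0 under all 6, bta-miR-155 lies left of the black bar under all 6, and bta-miR-155, bta-miR-223 and bta-miR-342 lie right of 0 without scaling or with bta-miR-181a.

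Ratios of a pair of members within an array need no scaling. The log2 ratio of bta-miR-155 to bta-miR-223 in subcutaneous fat was -0.59 ± 0.46 (SD, n = 8) in control steers and -1.94 ± 0.79 in high fat steers, lower by a factor of 2.54 (two-sided exact permutation test, p = 0.00093, adjusted p = 0.012 over 13 ratios). Without steer 202 the high fat mean was -1.72 ± 0.54 (SD, n = 7, exact permutation test, p = 0.0017). In visceral fat it was -0.95 ± 0.60 and -1.80 ± 0.59, a factor of 1.80 (exact permutation test, p = 0.014, adjusted p = 0.051), which missed the threshold. The groups overlapped in both depots. So bta-miR-155 and bta-miR-223 did not differ between the diets by the same factor in subcutaneous fat, and the ratio test had the same direction in visceral fat without passing.

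With bta-miR-142 set to the detection limit of each control array, the ratio of bta-miR-223 to bta-miR-142 was 2.59 to 5.20 (log2) in subcutaneous and 2.21 to 4.57 in visceral fat. On the high fat arrays it was -0.22 to 1.84 and -0.43 to 0.02. Taken at these limits, which an undetected miRNA can exceed, the ranges of the diets did not overlap in either depot. On that reading bta-miR-142 was higher relative to bta-miR-223 on every high fat array than on every control array of the same depot.

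**Figure D3:**
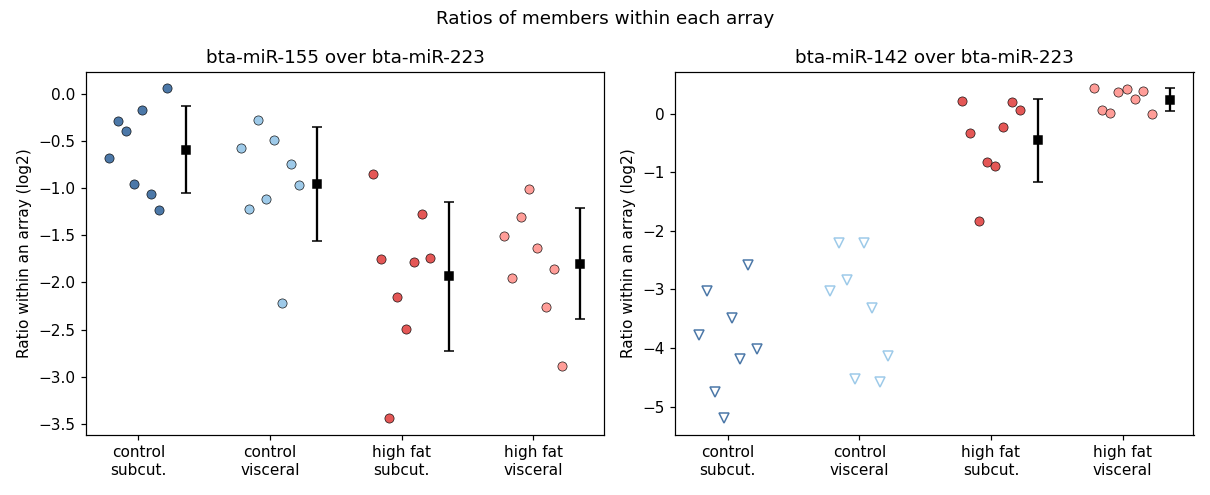
Log2 ratio within each array of bta-miR-155 to bta-miR-223 (left) and of bta-miR-142 to bta-miR-223 (right), for the 8 arrays of each group. Squares with bars are the mean and SD, and open triangles are ratios with bta-miR-142 at the detection limit of an array where it was not detected. The ratio of bta-miR-155 to bta-miR-223 has means of -0.59 and -1.94 in subcutaneous fat, and all triangles lie below all points of the high fat diet.

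The second comparison asks which members differed between the depots of the same diet. On the control diet, bta-miR-142 and bta-miR-146b were detected in neither depot, and limma called 0 of the other 3 members tested in either direction (9.3% of the 172 miRNAs with a detected array in both groups higher in visceral fat and 14% lower, and 6.87% and 12% of all 233). At an unadjusted p under 0.05 the number was also 0, as it was with the methods' t-test. bta-miR-155 differed by -0.39 (visceral minus subcutaneous, 95% interval -0.84 to 0.06, adjusted p = 0.26) and bta-miR-223 by -0.03 (-0.65 to 0.58). For bta-miR-342 the difference was -0.33, with an interval of -1.13 to 0.48 (limma, adjusted p = 0.74).

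On the high fat diet, 2 of the 5 members were lower in visceral than in subcutaneous fat and 0 were higher, against 14.6% and 11.6% of all 233. The scaled intensity of bta-miR-155 was -4.46 ± 0.29 (SD, n = 8) in subcutaneous and -5.18 ± 0.41 in visceral fat. It was lower in visceral fat in 8 of 8 steers, with differences of -1.12 to -0.19, and the mean difference of -0.71 ± 0.22 (SE), 1.64-fold, passed the test (limma, adjusted p = 0.017). The groups overlapped. The difference kept its direction with all scalings tried, but it did not pass with the percentile over all miRNAs (-0.70, limma adjusted p = 0.70), with the authors' table (-0.69, adjusted p = 0.22) or by the methods' t-test with Bonferroni correction (p = 0.28), and it was 0.01 with the normexp correction.

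For bta-miR-223 the scaled intensity was -2.53 ± 1.01 in subcutaneous and -3.38 ± 0.29 in visceral fat. The difference of -0.85 ± 0.30 (SE), 1.80-fold, passed the test (limma, adjusted p = 0.038), and 6 of 8 steers were lower in visceral fat, with overlap of the groups. The steers ranged from -2.85 in steer 202 to 0.25 in steer 412. Without the subcutaneous array of steer 202 the difference was -0.56 (limma, adjusted p = 0.089), and the call was also lost when the subcutaneous array of steer 204 or 302, or the visceral array of steer 103, 204, 302 or 411, was left out. It was lost as well with the percentile over all miRNAs, spot intensities, the normexp correction, the authors' table and the methods' t-test, with adjusted p of 0.053 to 1.0. Before scaling bta-miR-142, bta-miR-155 and bta-miR-223 were lower in visceral fat in 8 of 8 steers each and bta-miR-342 in 7, on arrays where the median of the 91 miRNAs was also lower, at -0.72 (log2).

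The other members did not pass the test between depots on the high fat diet. bta-miR-142 differed by -0.16 (95% interval -0.37 to 0.05, limma adjusted p = 0.29), lower in 4 of 8 steers, while without scaling it differed by -1.02 and passed the test. bta-miR-342 differed by 0.15 (-0.65 to 0.96) and bta-miR-146b by 0.52 (-0.22 to 1.25). The change of the depot difference between diets could be tested for the 3 members detected on both diets, and 0 of them were called, with 0 at an unadjusted p under 0.05 (limma interaction term). It was also called for 0 of the 172 miRNAs with a detected array in all 4 groups, against 0.429% higher and 1.29% lower among all 233. For bta-miR-142 and bta-miR-146b the term only repeats the depot difference of the high fat diet. That of bta-miR-223 was -0.82 with an interval of -1.69 to 0.05.

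**Figure D4:**
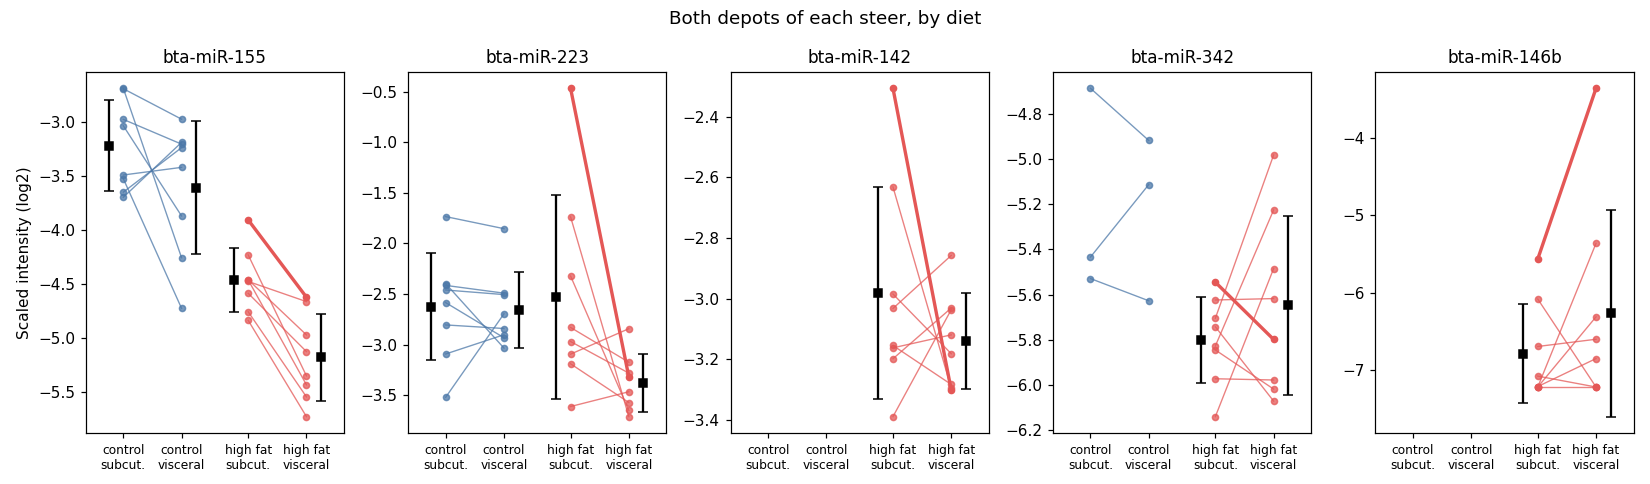
Scaled intensity (log2) of each member in subcutaneous and visceral fat, with 1 line per steer that was detected in both depots, blue for the control and red for the high fat diet; steer 202 has the thick line, and squares with bars are the mean and SD of a group in which all 8 arrays were detected. All 8 red lines of bta-miR-155 fall, and the steepest red line of bta-miR-223, -2.85, is that of steer 202; bta-miR-142 and bta-miR-146b have no control values.

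The depot ratios within the arrays of the high fat diet covered 10 pairs of members. The largest number of steers with the same sign was that of bta-miR-155 to bta-miR-342, which was lower in visceral fat in 8 of 8 steers, with a mean difference of -0.87 (log2). Its p of 0.0078 is the smallest the exact sign-flip test over 8 steers can give, and its adjusted value over the 13 ratios was 0.051. bta-miR-142 to bta-miR-223 was higher by 0.69 and bta-miR-142 to bta-miR-155 by 0.56, each in 7 of 8 steers (exact sign-flip test, p = 0.016 and 0.023, adjusted p = 0.051 for both). bta-miR-155 to bta-miR-223 differed by 0.13, with 3 of 8 steers in that direction (exact sign-flip test, p = 0.74). Of the 11 depot ratios over both diets, 0 passed after adjustment and 6 had an unadjusted p under 0.05.

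Whether the members varied together from steer to steer was examined within each group of 8, as pooled groups would only repeat the group differences. On the control diet the pair of bta-miR-155 and bta-miR-223 could be used. Its Pearson r was 0.55 in subcutaneous fat (Spearman rho 0.57, exact permutation p = 0.17 and 0.15) and 0.34 in visceral fat (rho 0.40, exact p = 0.42 and 0.33). Without the 2 arrays farthest from the median of bta-miR-155, r was 0.09 and 0.65.

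In subcutaneous fat of the high fat diet all 10 pairs of the 5 members had a positive r, from 0.46 to 0.91 with a median of 0.75, and 6 had an unadjusted exact permutation p under 0.05. bta-miR-146b was at the floor on 3 of 8 arrays in each depot, so correlations that use its scaled values rest in part on the floor. Of the 22 pairs over the 4 groups, 0 passed after adjustment and 7 had an unadjusted p under 0.05. The highest was bta-miR-142 with bta-miR-223 (r = 0.91, exact permutation p = 0.0049, adjusted p = 0.089, and rho = 0.62, exact p = 0.12). For this pair r was 0.76 without steer 202 alone (7 arrays). Without the 2 arrays farthest from the median of bta-miR-142, those of steers 202 and 302, it was 0.32, so the relation rested on these samples.

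Steer 202 had the highest scaled intensity of all 5 members in subcutaneous fat, a position that 23.5% of the 213 miRNAs detected on all 8 arrays of this group had on this array. Before scaling it was the highest for bta-miR-146b and bta-miR-223, the fourth for bta-miR-142 and bta-miR-155 and the seventh for bta-miR-342. Its 75th percentile of 1326 was the second lowest of the group, which ranged from 1322 to 2823. On the same array bta-miR-126, bta-miR-181a, bta-miR-451 and bta-miR-486 were the lowest of the 8 and the muscle miRNA bta-miR-1 was the highest, with a total intensity of 186. Without steer 202 all 10 pairs kept a positive r, from 0.08 to 0.76 (7 arrays).

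In visceral fat of the high fat diet 4 of the 10 pairs had a positive r, and the range was -0.67 to 0.78. bta-miR-142 with bta-miR-223 was again the highest (r = 0.78, exact permutation p = 0.021, adjusted p = 0.089, and rho = 0.67, exact p = 0.083), and it was 0.76 without the 2 arrays farthest from the median of bta-miR-142. bta-miR-142 with bta-miR-155 was the lowest (r = -0.67, exact p = 0.076, adjusted p = 0.18, and rho = -0.71, exact p = 0.058). Without its 2 farthest arrays, those of steers 412 and 202, r was -0.28. Without steer 202 alone the 10 pairs ranged from -0.57 to 0.90 (7 arrays). The difference in r between the depots was not tested. Values of 1 array share its scale, and without scaling 9 of 10 pairs in subcutaneous and 10 of 10 in visceral fat had a positive r, with no pair past the threshold. With arrays scaled to bta-miR-181a, 4 pairs passed, bta-miR-223 with bta-miR-142, bta-miR-146b and bta-miR-155 in subcutaneous and with bta-miR-142 in visceral fat. Without the 2 farthest arrays r of these pairs was 0.54, 0.47 and -0.01 in subcutaneous and 0.74 in visceral fat. In that scaling both members of a pair are divided by bta-miR-181a, which was lowest on the subcutaneous array of steer 202.

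**Figure D5:**
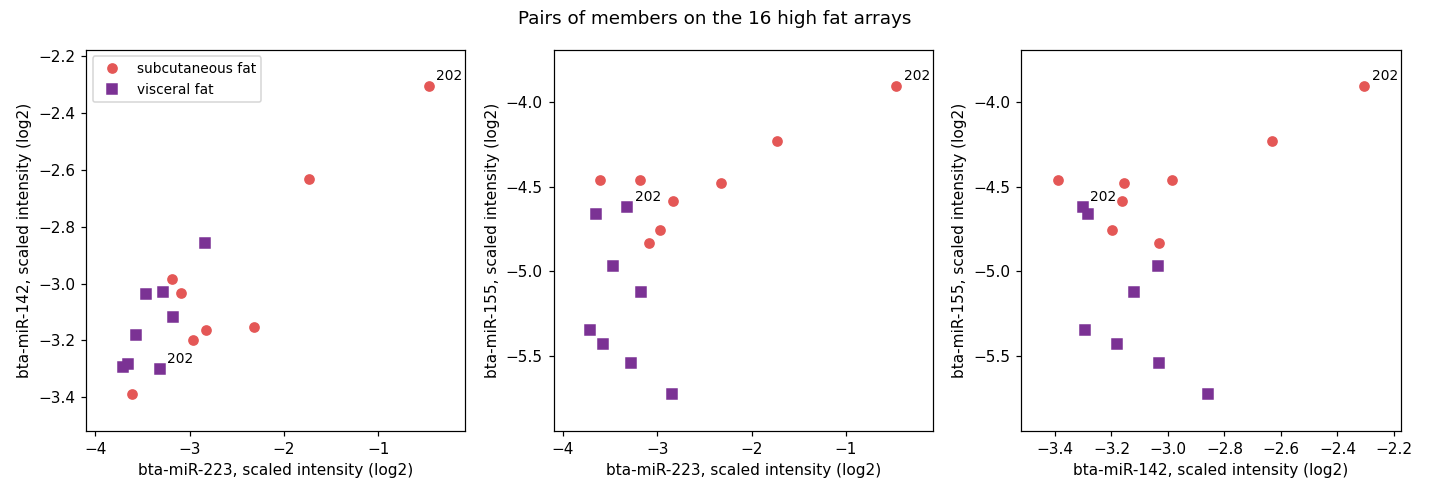
Scaled intensity (log2) of 3 pairs of members on the 16 high fat arrays, circles for subcutaneous and squares for visceral fat, with steer 202 marked. bta-miR-142 and bta-miR-223 have an r of 0.91 and 0.78 within the depots, and bta-miR-142 and bta-miR-155 an r of 0.78 in subcutaneous and -0.67 in visceral fat; the subcutaneous array of steer 202 is the upper right point of each panel.

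A member's level in one depot was set against its level in the other depot of the same steer. Of 7 such relations, 5 on the high fat and 2 on the control diet, 0 passed, with or without adjustment. The highest was bta-miR-155 on the high fat diet (r = 0.68, rho = 0.69, exact permutation p = 0.058 and 0.069, adjusted p = 0.24 for both), which dropped to 0.19 without steers 202 and 412. The lowest was bta-miR-142 on the high fat diet (r = -0.57, rho = -0.69, exact permutation p = 0.14 and 0.069), which was -0.02 without steers 202 and 302.

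The miRNAs most like each member were sought over the arrays of the groups in which that member was always detected, with group means removed. For bta-miR-142 they were bta-miR-223 (r = 0.89 over 16 arrays) and bta-miR-21 (0.79), among 158 compared. bta-miR-155 was most like bta-miR-99b (0.81 over 32 arrays, among 90) and bta-miR-100 (0.73). bta-miR-223 could be compared over all 32 arrays with 90 miRNAs only, which left out bta-miR-142, bta-miR-146b and bta-miR-342. Among these 90 its highest r was 0.43 for bta-miR-23a and 0.42 for bta-miR-1281. bta-miR-342 was most like bta-miR-23a (0.93 over 16 arrays) and bta-miR-92 (0.92), and bta-miR-146b most like bta-miR-199a-5p (0.83) and bta-miR-199a-3p (0.79). For bta-miR-146b these r include 3 of 8 arrays at the floor in each depot. These are descriptions over arrays that share a scale. bta-miR-223 was the only member named as most like another member, among the miRNAs that each search could return.

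Each member had 2 probes of 10 spots. Both probes of bta-miR-155 gave the same direction between the diets, -1.41 and -1.24 (log2) in subcutaneous and -1.78 and -1.55 in visceral fat, and -0.71 and -0.58 between the depots of the high fat diet. The 2 probes of bta-miR-223 disagreed between the diets in subcutaneous fat, at -0.41 and 0.28, while both were negative in visceral fat (-1.14 and -0.53) and between the depots of the high fat diet (-0.60 and -0.93). For bta-miR-342 only 1 probe was well above background on at least 50% of its spots on any array, and it carried 93.5% and 94.2% of the signal in the 2 depots of the high fat diet.

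Markers of other blood cells were read from the same arrays. Of the 3 erythrocyte miRNAs, bta-miR-451 was detected on 3 and 2 of the 8 control arrays and on all 16 high fat arrays, bta-miR-486 was detected on all 32, and bta-miR-144 was detected on 1 array. The summed total intensity of the 3 was 22.7 to 65.9 in subcutaneous and 31.7 to 64.8 in visceral fat of control steers, and 91.6 to 298 and 50.9 to 181 in high fat steers. After scaling, bta-miR-451 was 4.55-fold higher in subcutaneous and 2.79-fold higher in visceral fat of high fat steers, with undetected control arrays at their own limits (limma with these arrays at the floor, adjusted p = 4.7e-10 and 3.0e-09). It did not pass with the percentile over all miRNAs (1.04 and 0.79, adjusted p = 0.31 and 0.46) and had the opposite sign with the normexp correction (-0.87 and -1.06). bta-miR-486 differed by -2.61 and -2.56 (log2, limma adjusted p = 8.3e-16 and 1.4e-15), and by 0.30 and -0.14 without scaling, so that the 2 tested erythrocyte miRNAs did not differ by the same factor. Between the depots of the high fat diet, where bta-miR-155 and bta-miR-223 were lower in visceral fat, bta-miR-486 was higher there after scaling (0.73, limma adjusted p = 0.00085) and bta-miR-451 differed by -0.29 (adjusted p = 0.55). Before scaling the median of bta-miR-486 was not higher in visceral fat, at 43.7 in subcutaneous and 40.7 in visceral fat. The part of blood in the members' differences was not tested.

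Of 8 other miRNAs known from immune cell activation and differentiation, 7 were on the array and 5 were tested. bta-miR-21, which rises in activated leukocytes and in fibrosis, was detected on 4 and 3 of the 8 control arrays and was at least 9.70-fold and at least 5.37-fold higher on the high fat diet in subcutaneous and visceral fat (limma with undetected arrays at the floor, adjusted p = 1.0e-13 and 1.0e-12). bta-miR-424, which accompanies monocyte differentiation, was detected on 0 control arrays. Against their own limits it was 6.38-fold and 2.24-fold higher, values given with no test because its control arrays were all at the floor. Like bta-miR-142, both had the opposite sign with the normexp correction. bta-miR-181a and bta-miR-181b, which tune lymphocyte development, were lower in both depots after scaling, with differences of -2.01 and -1.88 and of -0.77 and -1.34 (log2), and higher without scaling, by 0.91 and 0.54 and by 1.93 and 1.08. bta-miR-132 did not pass, and bta-miR-147 and bta-miR-212 were detected on 0 arrays. Between depots of the high fat diet 1 of the 5, bta-miR-424, was lower in visceral fat, with a difference of -1.02 (limma, adjusted p = 0.0026).

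The other marker lists bear on what else the samples held, and their diet directions are those of the main scaling. Several of these had another sign with the percentile over all miRNAs, the normexp correction or the authors' table. The 2 endothelial miRNAs, bta-miR-126 and bta-miR-126*, were both higher on the high fat diet in both depots, bta-miR-126 by 2.11 and 2.03 (log2). Of the 4 muscle miRNAs 3 were tested and 1, bta-miR-1, was higher on the high fat diet. It was 2.45-fold and 2.04-fold higher with undetected control arrays at their own limits. The summed total intensity of the 4 was 0 to 7.30 in subcutaneous and 0 to 25.7 in visceral fat of control steers, and 23.5 to 303 and 31.7 to 200 in high fat steers. Of the 4 miRNAs of kidney and other epithelium only bta-miR-194 was tested. It was 1.65-fold and 1.70-fold higher in high fat steers with control arrays at their own limits, folds that levels above these limits would lower. The liver miRNA bta-miR-122 was not tested and reached 42.6 in a visceral sample of the control diet and 434 in one of the high fat diet. The 5 miRNAs of fat and its stroma were detected in each group, and 3 of them, bta-miR-103, bta-miR-107 and bta-miR-143, were higher on the high fat diet in both depots after the main scaling. With the authors' table bta-miR-103 differed by -0.68 and -0.30, bta-miR-107 by -0.14 and 0.21, and bta-miR-143 by 1.67 and 1.59 in subcutaneous and visceral fat. bta-miR-378 was lower in subcutaneous fat (-0.64, limma adjusted p = 0.0012) and differed by -0.04 in visceral fat (adjusted p = 0.87), while bta-miR-145 differed by -0.12 and -0.01 and did not pass. Between the depots of the high fat diet bta-miR-145 and bta-miR-378 of this list and bta-miR-126 were higher in visceral fat, of which bta-miR-145 and bta-miR-126 had the opposite sign without scaling. bta-miR-194 was also higher there after the main scaling (0.54, limma adjusted p = 0.0020). Without scaling its interaction term was -0.33, which only repeats this depot difference because no control array detected it. The part of these lists in the members' differences was not tested.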

How the data were processed

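The authors labelled total RNA with Cy3, hybridized 1 array per sample and read it with Feature Extraction 10.7.3.1. They deposited spot intensity and total gene intensity (background subtracted, unscaled, 0.1 where a miRNA was not detected), with detection calls. They also deposited log2 values from GeneSpring, scaled to a 75th percentile, of which the 244 features above 0 each matched 1 miRNA by value.

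The main fit used the total gene intensity. Of the 672 miRNAs, the 233 detected on at least 8 arrays and above the floor somewhere were fitted with limma 3.58.1 (all 4 groups fitted together, eBayes, two-sided tests with Benjamini-Hochberg adjustment) in R 4.3.3. Exact permutation tests and correlations used Python 3 with numpy and scipy. The methods' t-test was an alternative. normexp used the median spot intensity, as the files held no mean. The fit was tested on simulated data. Named miRNAs are the 7 members, the marker lists, bta-miR-181a and, for each member, the 2 most alike miRNAs. The members and lists were chosen with earlier results of these data known.

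Depots pair by animal, since each steer gave both. Over the 91 miRNAs, the deviations of a steer's 2 depots correlated from -0.72 to 0.65 (median -0.20), and 7 of the 16 values were positive. A steer's own other depot was its best match for 2 of 16 steers, so these values give little sign of the pairing. No spot was saturated (0 of all). Precision is limited by the 8 arrays per group. Leave-one-out fits, ratios within arrays, positions among the 91 miRNAs and counts over the miRNAs with a detected array in each group were added after seeing the data. The qRT-PCR data are not analysed here.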

Additional observations from a re-analysis of the deposited data

Results flagged for a closer look

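One value stood apart from its group. In visceral fat of the control diet, steer 211 had the highest scaled bta-miR-223, -1.85 (log2, total intensity 73.9), and its gap to the next of the 8 arrays was 0.54 of the group's range, above the limit at the 95% level for 8 values (Dixon's test). This was tested for 14 sets of 8 arrays, and chance marks about 1 in 20. Without this array the diet difference of bta-miR-223 in visceral fat was -0.61 and missed the threshold. The bta-miR-223 value of steer 202 in subcutaneous fat of the high fat diet, -0.47, did not pass this limit at 0.40 of the range, with steer 302 the next highest, nor did its bta-miR-146b value in visceral fat, at 0.519.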

How the results depend on the processing

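The diet differences depended on the scaling, for the members and for other miRNAs. In subcutaneous fat the median difference of the miRNAs detected on all arrays was -0.91 after the main scaling. It was 2.01 without scaling, 1.16 with bta-miR-181a and -1.11 with the normexp correction. The counts of members called below move with this median and are not read as a result about the members. In subcutaneous fat, where 2 members were called, 5 were called without scaling and 5 with bta-miR-181a as the scale, all higher, 5 with the normexp correction, all lower, 4 with the percentile over all miRNAs and 4 with the authors' table (1 higher and 3 lower in each), and 1 among the miRNAs detected on all 32 arrays. In visceral fat, where 4 were called, bta-miR-142 and bta-miR-146b against the floor alone, 2 were called among the miRNAs detected on all 32 arrays and 2 by the methods' t-test (Bonferroni). Detection on all 32 arrays left only bta-miR-155 and bta-miR-223 to be tested, so that this fall was fixed by the filter, and neither lost a call. The normexp correction adds the offset to every spot, and after it bta-miR-146a, detected nowhere, was lower on the high fat arrays, and the percentile over all miRNAs was the value of an undetected miRNA on 15 arrays. The cause of the other changes was not tested.

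These differences (high fat minus control, log2) changed sign. Without scaling bta-miR-155 was 1.67 and bta-miR-342 2.40 in subcutaneous fat, and bta-miR-155 0.85 and bta-miR-223 1.70 in visceral fat. With bta-miR-181a bta-miR-155 was 0.76 and bta-miR-342 1.67 in subcutaneous fat, and bta-miR-155 0.31 and bta-miR-223 1.16 in visceral fat. With the percentile over all miRNAs bta-miR-146b was -0.10 and bta-miR-223 -4.04 in subcutaneous and bta-miR-342 -2.95 in visceral fat. With quantile normalization bta-miR-223 was -0.19 in subcutaneous and bta-miR-342 -0.10 in visceral fat. With the authors' table they were -1.30 and -0.82, and with spot intensities bta-miR-342 was -0.47 in visceral fat. With normexp bta-miR-142, bta-miR-146b and bta-miR-223 were -0.61, -0.84 and -0.80 in subcutaneous fat, and bta-miR-142, bta-miR-146b and bta-miR-342 were -0.73, -1.14 and -1.24 in visceral fat. Leaving out single arrays moved bta-miR-223 in subcutaneous fat between -0.20 and 0.25.

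Between depots of the control diet 0 members were called, and 1 was with normexp. bta-miR-223 became 0.29 with the percentile over all miRNAs and 0.02 with spot intensities, and lay between -0.16 and 0.10 without single arrays. bta-miR-342 became 0.0061 with spot intensities, and with normexp bta-miR-155, bta-miR-223 and bta-miR-342 became 0.17, 0.20 and 0.30. On the high fat diet, where 2 were called, 0 were called with the percentile over all miRNAs, with normexp, with the authors' table and by the methods' t-test (Bonferroni), and 1 with spot intensities and by the t-test with Benjamini-Hochberg adjustment, the latter added after seeing the data. Leaving out 1 array left 1 to 2 called. Without scaling bta-miR-146b became -0.29 and bta-miR-342 -0.71, with bta-miR-181a bta-miR-342 became -0.10, and with normexp bta-miR-142 became 0.21 and bta-miR-155 0.0098. With the steer as a replicate block the difference was -0.71 for bta-miR-155 (limma, adjusted p = 0.017) and -0.85 for bta-miR-223 (adjusted p = 0.042), and the pairing changed no call between depots.

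For the change of the depot difference between diets, where 0 were called, 1 was called without scaling, bta-miR-142 with its control arrays at the floor. bta-miR-146b and bta-miR-342 became -0.29 and -0.25 without scaling and -0.30 and -0.29 with normexp, and bta-miR-155 became 0.0044 with the authors' table. Of the pairs of members, 0 passed, against 2 with the percentile over all miRNAs and 4 with bta-miR-181a. A value above 0 in the authors' table left bta-miR-146b on 2 and 3 of the high fat arrays in subcutaneous and visceral fat, and at least 1 probe well above background left bta-miR-342 on 5 and 3 of the 8 control arrays.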
